A study of Mus musculus with 6 samples.

Results

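The expression of 10 genes of ferritin and iron handling was examined in sorted neural crest cells (NCCs) of the mouse: Fth1, Ftl1, Tfrc, Slc40a1, Slc11a1, Slc11a2, Hmox1, Ireb2, Aco1 and Ncoa4. They were chosen by name, with earlier results of these data known, and all 10 were found among the 46983 rows of the count table. GFP-positive cells were sorted from mouse embryos at E11.25, when NCCs populate the pharyngeal arches and outflow tract. All 6 libraries carried Wnt1 Cre/+ and 1 copy of the Rosa26 mTmG reporter, which switches a cell from red to green fluorescence once Cre has acted. The 3 control libraries kept one functional copy each of BAF155 and BAF170 (BAF155 flox/+ with BAF170 flox/+), and the 3 deficient libraries were flox/flox for both, so loss of both copies was compared with loss of one. BAF155 and BAF170 are core subunits of the BAF chromatin remodeling complex. Wnt1-driven Cre is also active in the dorsal neural tube, so the sort is not limited to NCCs. RNA of poly(A) libraries was counted per gene, with totals from 8191219 to 19808620 counts per library, and all deficient libraries were deeper than all control libraries. Against the label of the sort, markers of NCCs held 0.00727% to 0.0211% of the counts of a library and markers of macrophages 1.13% to 1.68%, and both lists are described after the 10 genes. Levels are given in CPM, a gene's counts scaled to the TMM-normalized size of its library. Labels name the libraries of each group as replicates, and the authors describe cells from 3 control and 3 deficient embryos. The spread between libraries is the only error available.

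The targeted genes were read as a check of the labels. Smarcc1, which encodes BAF155, had 42.1, 55.0 and 35.1 CPM in control libraries, against 29.4, 26.4 and 24.5 CPM in deficient ones, and Smarcc2, which encodes BAF170, 91.8, 89.9 and 92.9 CPM against 85.9, 82.3 and 86.8 CPM. Both were lower in every deficient library than in any control, Smarcc1 by a log2 fold change of −0.71 (standard error 0.16) and Smarcc2 by one of −0.11 (standard error 0.058). Of all tested genes, 16.4% were also lower without overlap. The first quartile of all log2 fold changes was −0.34, so Smarcc1 lay below it and Smarcc2 did not. The values of Smarcc2 are therefore a weak check of the labels. Counts per gene include exons that the deletion leaves in place.

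Iron inside cells is stored in ferritin, a hollow shell built of heavy chains (Fth1), which oxidize iron, and light chains (Ftl1), which help to mineralize it. Transferrin-bound iron enters through the transferrin receptor Tfrc, the transporters Slc11a2 (DMT1) and Slc11a1 (NRAMP1, of phagosomes) carry ferrous iron across membranes, and Slc40a1 (ferroportin) exports it. When iron is scarce, the iron regulatory proteins Aco1 (IRP1) and Ireb2 (IRP2) bind hairpins called iron-responsive elements: binding in the 5′ untranslated region of an mRNA blocks its translation, and binding in the 3′ region of Tfrc mRNA stabilizes it. Macrophages, which recycle iron from engulfed cells, are known for abundant ferritin, Hmox1 and Slc11a1.

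The hairpin that ties these genes together could be read in the transcripts of GENCODE M21 (GRCm38). The pattern searched, on the transcript strand only, was a CAGTGN loop closed by 5 paired bases on either side, then an unpaired C on the 5′ side, and below it a stem with at least 4 of 5 pairs. Of 21901 protein-coding genes 18, or 0.082%, held it in an untranslated region, and 4 of the 10 iron handling genes did: Fth1, Ftl1 and Slc40a1 in the 5′ region and Tfrc at 4 sites in the 3′ region. The sites are shown because they are the feature on which the storage, export and uptake genes differ in position. The 6-base loop is in capitals.
Fth1: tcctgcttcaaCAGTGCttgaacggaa
Ftl1: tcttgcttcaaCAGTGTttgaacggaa
Slc40a1: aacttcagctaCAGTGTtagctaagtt
Tfrc site 1: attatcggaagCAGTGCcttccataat
Tfrc site 2: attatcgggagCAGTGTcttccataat
Tfrc site 3: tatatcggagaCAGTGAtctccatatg
Tfrc site 4: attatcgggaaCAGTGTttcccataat
They lie at chr19:9982733-9982759 on the plus strand (Fth1), chr7:45459780-45459806 on the minus strand (Ftl1) and chr1:45925466-45925492 on the minus strand (Slc40a1). The Tfrc sites lie on the plus strand at chr16:32631220-32631246, chr16:32631599-32631625, chr16:32631664-32631690 and chr16:32631711-32631737. Alas2, described with the heme genes, held the pattern in the 5′ region. A match describes the letters only, and the counts do not read translation.

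Both ferritin chains were among the most abundant transcripts of the sort and had higher means in the deficient libraries. Fth1 (ENSMUSG00000024661.6, chromosome 19 from 9980598 to 9985098) had 15870, 14880 and 17320 CPM in controls 1 to 3, against 17590, 18370 and 18950 CPM in deficient replicates 1 to 3. The groups did not overlap, and deficient replicate 1 lay just above control replicate 3. It ranked 4 among 13961 tested genes by mean CPM. Its log2 fold change, deficient against control, was 0.19 (standard error 0.086), a ratio of means of 1.14.

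Ftl1 (ENSMUSG00000050708.14, chromosome 7 from 45457944 to 45459884), which ranked 68, had 1427, 1242 and 1389 CPM in control libraries, against 1564, 1451 and 1688 CPM in deficient ones. The lowest deficient library was again above the highest control. Its log2 fold change was 0.21 (standard error 0.079). Ftl1 shares sequence with other loci: 73.4% of the 50-base windows of its transcript also occur in Ftl1-ps1, which is annotated as protein-coding and was at 709 CPM (control mean) and 720 CPM (deficient mean). How the counting assigned reads that fit both rows is not given in the sources used here, so the split between the rows is uncertain. With such rows summed into Ftl1, a setting chosen after the values were seen, the log2 fold change was 0.16. For Fth1 the shared part was 6.59% of windows, all with the pseudogene Gm6977, and the summed value stayed at 0.19.

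Together the ferritin chains held between 1.47% and 2.19% of all counts of a library. The 10 most abundant genes of each library took 29.9%, 35.0% and 21.8% of the counts in controls 1 to 3 and 23.4%, 22.8% and 16.2% in deficient replicates 1 to 3, and the part of this difference in the ferritin levels was not tested. Their sum was 17376 ± 1290 CPM in control and 19871 ± 741 CPM in deficient libraries (SD, n = 3 each). The ratio of Ftl1 to Fth1 CPM was 0.0845 ± 0.0049 (SD, n = 3) in the controls and 0.0857 ± 0.0058 (SD, n = 3) in the deficient libraries, a difference under the SD of either group. This ratio does not depend on how libraries are scaled, but it does depend on the look-alike rows: 15 rows that share windows with Ftl1 summed to between 45.6% and 56.4% of its CPM. With look-alike rows added, the log2 difference of the ratio between groups went from 0.02 to −0.04.

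Because these 10 genes were chosen with this comparison known, their fold changes are given as a description without p-values. A gene was called where edgeR's quasi-likelihood test gave an adjusted p (Benjamini-Hochberg) of 0.1 or less, its mean was 2 CPM or more and its fold change on the log2 scale was 0.58 or more in size. None of the 10 was called, beside 4.94% of all tested genes (4.88% lower and 0.0573% higher). In 6 of the 10 there was no overlap between groups, with 5 higher and 1 lower in the deficient libraries, beside 31.4% of all tested genes (15.0% higher and 16.4% lower). Fold changes were above 0 in 7 of the 10 and in 47.7% of all tested genes, and their median on the log2 scale was 0.14 over the 10 and −0.02 over all. All values by library are plotted first, and the fold changes after them.

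**Figure D1:**
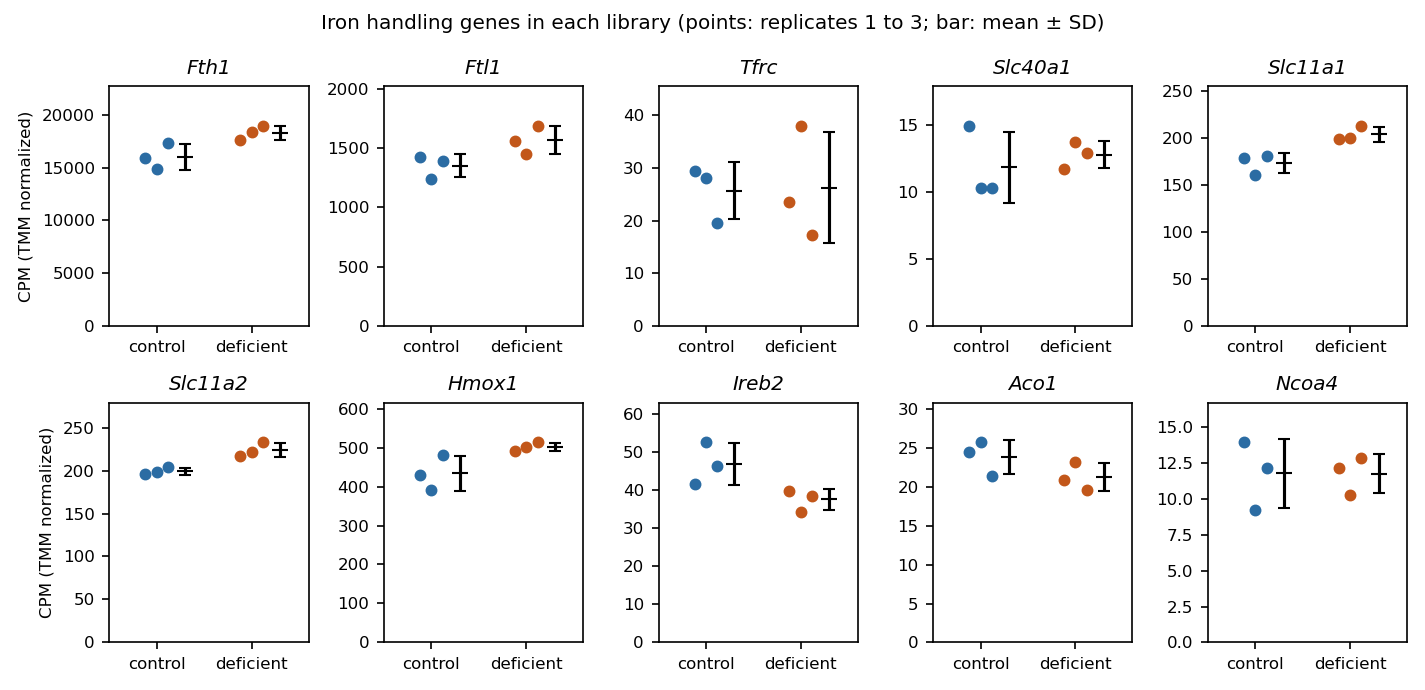
CPM of each of the 10 genes (vertical axes, from 0) in the 3 control and 3 deficient libraries, with points for replicates 1 to 3 and a bar for mean ± SD. Fth1, Ftl1, Slc11a1, Slc11a2 and Hmox1 sit higher in all deficient libraries and Ireb2 lower, while Tfrc spreads from 17.3 to 37.9 CPM within the deficient group.

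**Figure D2:**
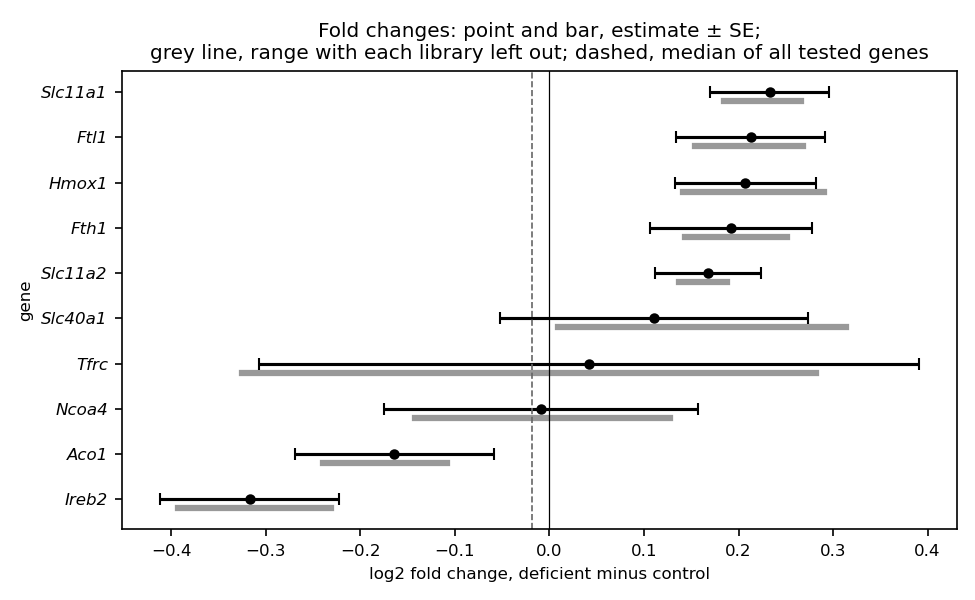
Log2 fold change (horizontal axis, deficient minus control) of each gene with its standard error, and in grey the range of the estimate with each library left out in turn. The grey ranges of Tfrc and Ncoa4 cross 0, and those of the other 8 genes do not.

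Among the transporters, Slc11a1 (ENSMUSG00000026177.11, chromosome 1 from 74375195 to 74386062), which moves iron out of the phagosome, had 178.5, 161.2 and 181.4 CPM in control libraries, against 199.1, 200.5 and 213.1 CPM in deficient ones. The groups did not overlap, and the log2 fold change was 0.23 (standard error 0.063). Slc11a2 (ENSMUSG00000023030.16, chromosome 15 from 100387898 to 100425072), the endosomal and plasma membrane importer, had 195.8, 198.4 and 203.6 CPM in control libraries, against 217.2, 221.5 and 232.7 CPM in deficient ones. Its controls were the tightest of the 10 relative to their mean (199 ± 3.98 CPM, SD, n = 3), and its log2 fold change was 0.17 (standard error 0.056).

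Tfrc (ENSMUSG00000022797.15, chromosome 16 from 32608920 to 32632794) was uneven between libraries. It had 29.4, 28.1 and 19.5 CPM in control libraries, against 23.6, 37.9 and 17.3 CPM in deficient ones, so the highest and the lowest library were both deficient. Its log2 fold change of 0.04 (standard error 0.35) became −0.33 without deficient replicate 2 and 0.28 without deficient replicate 3. Slc40a1 (ENSMUSG00000025993.10, chromosome 1 from 45908068 to 45926523), the exporter, was low, with 14.9, 10.3 and 10.3 CPM in control libraries, against 11.7, 13.7 and 12.9 CPM in deficient ones. Control replicate 1 was the highest of all and the groups overlapped. Its log2 fold change of 0.11 (standard error 0.16) ran from 0.0093 without control replicate 3 to 0.31 without control replicate 1.

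Hmox1 (ENSMUSG00000005413.7, chromosome 8 from 75093621 to 75100589) encodes heme oxygenase 1, which opens the heme ring and frees its iron. It had 428.7, 392.0 and 482.1 CPM in control libraries, against 490.4, 501.6 and 513.1 CPM in deficient ones. The groups did not overlap, although control replicate 3 came close to deficient replicate 1. The log2 fold change was 0.21 (standard error 0.075).

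The regulators had lower or level means in the deficient libraries. Ireb2 (ENSMUSG00000032293.7, chromosome 9 from 54863789 to 54912530) had 41.7, 52.6 and 46.5 CPM in control libraries, against 39.8, 34.4 and 38.6 CPM in deficient ones, with no overlap and a log2 fold change of −0.32 (standard error 0.094). A smoothed trend of the counts of all genes with exon length differed between the groups by −0.18 (log2) at the 9479 bases of merged Ireb2 exons. With that trend removed, the log2 fold change of Ireb2 was −0.14, and those of Slc11a2 (0.26), Slc40a1 (0.28), Tfrc (0.12) and Ncoa4 (0.17) were higher than without the correction. Those of Ftl1 (0.15) and Hmox1 (0.16) were lower than without it. Aco1 (ENSMUSG00000028405.9, chromosome 4 from 40143081 to 40198338) had 24.5, 25.7 and 21.4 CPM in control libraries, against 20.9, 23.2 and 19.6 CPM in deficient ones, which overlapped, and its log2 fold change was −0.16 (standard error 0.11). With a library left out it ran from −0.24 (without control replicate 3) to −0.11 (without deficient replicate 3). Ncoa4 (ENSMUSG00000056234.14, chromosome 14 from 32159865 to 32179855), the receptor that delivers ferritin to the lysosome, had 13.9, 9.23 and 12.2 CPM in control libraries, against 12.1, 10.3 and 12.9 CPM in deficient ones. Its log2 fold change was −0.0086 (standard error 0.17), and ran from −0.14 (without control replicate 2) to 0.13 (without control replicate 1). Of its 50-base windows, 52.5% also occur in the pseudogene Gm6768, which leaves the level of Ncoa4 uncertain. Gm6768 was at 17.2 CPM (control mean) and 15.4 CPM (deficient mean), above Ncoa4 itself, and with both rows summed the log2 fold change was −0.10.

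To compare levels between genes, CPM were divided by the length of the first-numbered transcript of each gene in GENCODE M21 (RPKM). In the controls, Fth1 stood at 17250 ± 1320 RPKM (SD, n = 3), Ftl1 at 1397 ± 101 RPKM and Hmox1 at 276.8 ± 28.9 RPKM, each clear of the next. Slc11a1 at 75.02 ± 4.71 RPKM and Slc11a2 at 65.9 ± 1.31 RPKM followed. The regulators and surface proteins formed the lower end. Ireb2 had 8.13 ± 0.95 RPKM, Aco1 6.23 ± 0.57 RPKM and Tfrc 5.24 ± 1.10 RPKM, and the intervals of 1 SD of Aco1 and Tfrc overlapped. Ncoa4 (3.52 ± 0.71 RPKM) and Slc40a1 (3.51 ± 0.79 RPKM) were not separated by their spread, and the place of Ncoa4 rests on its split from Gm6768. The order from Fth1 to Slc11a2 was the same on merged exon lengths, where Aco1 (5.31 RPKM) came before Ireb2 (4.95 RPKM).

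Markers of other cell types were read beside these genes, as the sort could hold cells of other lineages. The marker lists, too, were chosen with earlier results of these data known, so their p-values and calls are descriptive. A list of 14 macrophage markers, with Ctss (mean 3833 CPM) the most abundant and none at 0 in any library, summed to 13280 ± 995 CPM in control and 15110 ± 663 CPM in deficient libraries (SD, n = 3 each). The exact permutation p was 0.1 (two-sided), the smallest that 3 against 3 libraries allow. All 14 had a positive log2 fold change, from 0.15 to 0.25. A list of 26 neural crest markers, led by Pdgfra (mean 17.7 CPM), summed to 175 ± 55.7 CPM in control and 81.9 ± 19.1 CPM in deficient libraries (SD, n = 3 each, exact permutation test, two-sided p = 0.1). All 25 tested crest markers had lower means and 11 (44%) were called lower, beside 4.88% of all tested genes. Without control replicate 1 no gene of the whole table was called, and the 681 called lower became 61 without control replicate 2 and 17 without deficient replicate 3. Every crest marker had counts in every library, and their sum was far below that of the macrophage markers. In bulk RNA, fewer cells of a type and less RNA per cell cannot be told apart.

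The ferritin sum, most of it Fth1, followed the macrophage marker level from library to library. The summed CPM of Fth1 and Ftl1 divided by that of the 14 markers was 1.32, 1.31 and 1.31 in the controls and 1.33, 1.31 and 1.31 in the deficient libraries. The ferritin sum itself differed by 28% between the lowest and the highest library, and the ratio by 1.58%. Divided by the crest marker sum, ferritin ranged from 69.7 to 302. For Fth1 alone, the coefficient of variation over the 6 libraries was 8.92% in CPM and 0.56% relative to the macrophage sum, and 0.0339% of 11787 genes with at least 2 CPM had a ratio to that sum as even as this. Ftl1 followed less closely, with a coefficient of variation of 10.5% in CPM and 5.57% relative to the macrophage sum, a ratio as even as which 17.5% of those genes had. The 11787 genes include Fth1 itself and the 14 markers of the sum. Nearly all have fewer counts than Fth1, and few counts alone make a ratio less even. No comparison with equally abundant genes was made, so these shares cannot separate likeness to the markers from abundance.

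Relative to the macrophage sum, the deficient mean was 1.004 times the control mean for Fth1, 1.02 for Ftl1 and for Hmox1, 1.03 for Slc11a1 and 0.98 for Slc11a2. It was 0.94 for Slc40a1, 0.89 for Tfrc, 0.88 for Ncoa4, 0.78 for Aco1 and 0.70 for Ireb2. With the libraries scaled to these markers, the log2 fold changes of Fth1, Ftl1, Hmox1 and Slc11a1 lay between 0.01 and 0.05, that of Slc11a2 was −0.02 and that of Ireb2 −0.51, while the median of all tested genes moved to −0.20. With the libraries scaled to 18 crest markers instead, the median of all tested genes was 1.03, and Ireb2 (0.73), Aco1 (0.90) and Ncoa4 (1.01) turned positive and lay below that median, while Fth1 (1.21), Ftl1 (1.24), Hmox1 (1.21), Slc11a1 (1.26) and Slc11a2 (1.21) lay above it. Whether these transcripts came from macrophages or from crest-derived cells was not tested.

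**Figure D3:**
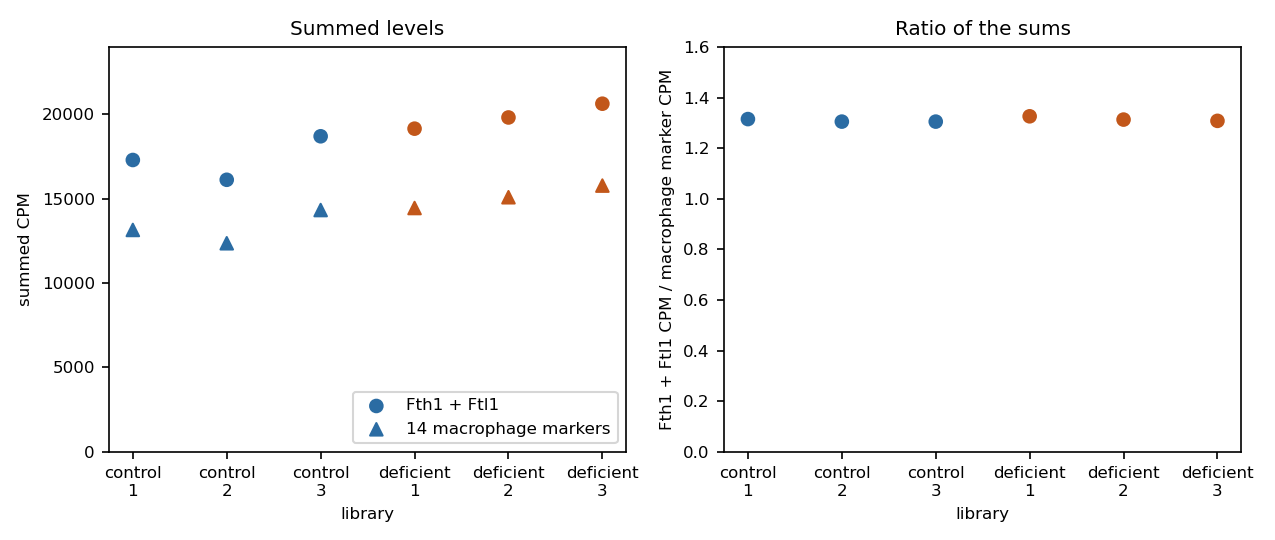
Left, summed CPM (from 0) of Fth1 and Ftl1 (circles) and of 14 macrophage markers (triangles) in each library. Right, the ratio of the sums, which lies between 1.31 and 1.33 in all 6 libraries.

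**Figure D4:**
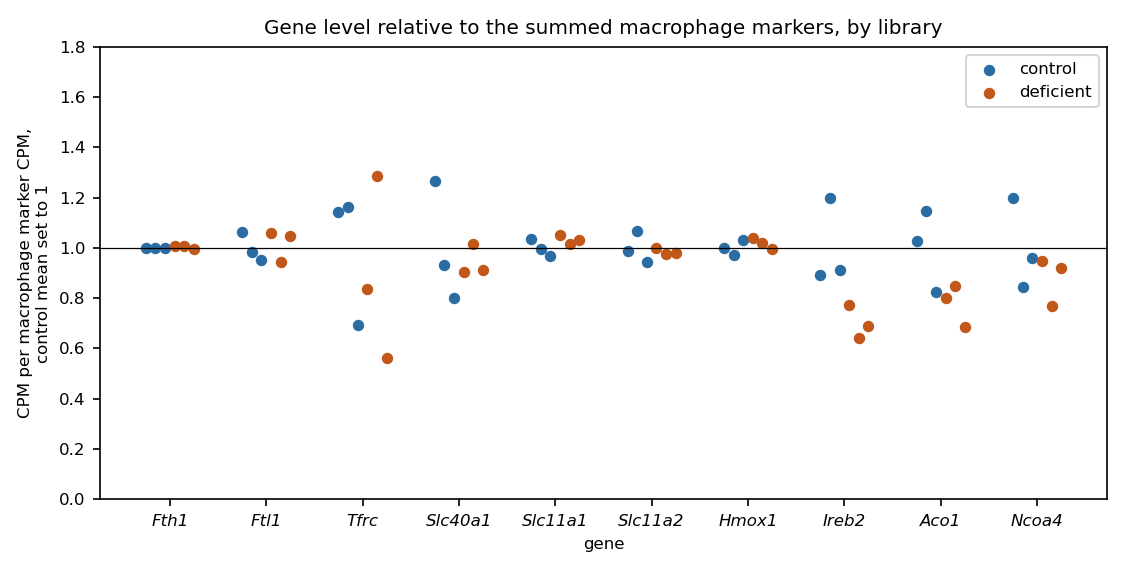
CPM of each gene divided by the summed CPM of 14 macrophage markers, with the control mean set to 1 (vertical axis), for control (blue) and deficient (orange) libraries. Fth1 lies within 0.995 and 1.01 in every library, whereas all deficient libraries of Ireb2 lie below the controls, between 0.64 and 0.77.

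The genes whose profile over the 6 libraries was most like that of Fth1 were Cflar, Fcer1g and Spi1, by the root mean square difference of centred log2 CPM, which was 0.0068, 0.0068 and 0.0069, against a spread of 0.12 for Fth1 itself. Fcer1g is one of the macrophage markers, and Spi1 encodes PU.1, the transcription factor of myeloid cells. For Hmox1 they were Igtp, Zc3h12a and Tgfb1 (0.0093 to 0.0105). For Ftl1 they were the pseudogenes Rps10-ps2 and Oaz1-ps and the gene Morf4l1 (0.0148 to 0.022). Tfrc and Slc40a1 had no neighbour as close: the nearest were Atg2b at 0.07 and Mamdc2 at 0.05. The search covered 11786 genes with at least 2 CPM.

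The wider iron and heme network was read from 108 further genes listed by role, of which 93 passed the filter on low counts. Of these 3 were called lower and none higher, a share of 3.23% beside the 4.94% of all tested genes. At the adjusted p alone, 5 were lower (5.38%, beside 7.75% of all tested genes) and 3 higher (3.23%, beside 4.18%). Log2 fold changes were above 0 in 60.2% of the list and 47.7% of all tested genes, and the groups did not overlap in 17.2% (higher) and 10.8% (lower) of the list, beside 15.0% and 16.4%. The 5 with an adjusted p of at most 0.1 and lower numbered 0 with control replicate 1, with control replicate 2 or with deficient replicate 3 left out, and 1 without deficient replicate 2. The median log2 fold change of the list was 0.05. This list was also chosen with earlier results of these data known, so its p-values and calls are descriptive.

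Steap2, a ferrireductase of endosomes, fell from 2.98, 4.28 and 2.30 CPM in the controls to 1.49, 0.794 and 1.14 CPM in the deficient libraries (log2 fold change −1.47, standard error 0.37, edgeR Benjamini-Hochberg adjusted p = 0.0701). Its mean of 2.16 CPM was close to the threshold for a call. Slc22a17, a receptor for the siderophore carrier Lcn2, fell from 9.04, 10.6 and 7.22 CPM to 4.31, 6.17 and 2.99 CPM (log2 fold change −0.99, standard error 0.27, edgeR adjusted p = 0.0773). Neo1, neogenin, a guidance receptor that also assists hemojuvelin in hepcidin signaling, fell from 25.2, 28.5 and 19.3 CPM to 15.8, 14.2 and 8.26 CPM (log2 fold change −0.94, standard error 0.26, edgeR adjusted p = 0.0937). In all of these the groups did not overlap. With a library left out, the log2 fold changes ran from −1.67 to −1.21 for Steap2, from −1.30 to −0.75 for Slc22a17 and from −1.12 to −0.69 for Neo1. The calls were lost by their adjusted p: 0 of the 93 genes were called with control replicate 1, with control replicate 2 or with deficient replicate 3 left out, fits in which the genes called lower over the whole table fell from 681 to 0, 61 and 17, and 1 was called with deficient replicate 2 left out, where the whole table had 219. Scaled to the crest markers, Slc22a17 (0.10) and Neo1 (0.13) changed sign and Steap2 was −0.36, with a median of all genes of 1.03.

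By role, 2 of 9 tested genes of iron uptake and reduction were called lower (22.2%, beside 4.88% of all tested genes) and none higher (beside 0.0573%). The most abundant, Lcn2, had 104 ± 9.13 CPM in control and 118 ± 3.18 CPM in deficient libraries (SD, n = 3 each). Among the 2 tested oxidases that act with the exporter, the membrane form Heph and the secreted form Cp (ceruloplasmin) went in opposite directions at the adjusted p alone. Heph fell from 2.45, 3.08 and 1.72 CPM to 1.10, 1.28 and 0.475 CPM (log2 fold change −1.35, standard error 0.43, edgeR Benjamini-Hochberg adjusted p = 0.0949), with a mean below the 2 CPM needed for a call. Cp rose from 63.1, 68.4 and 76.1 CPM to 80.9, 83.5 and 89.5 CPM (log2 fold change 0.29, standard error 0.078, edgeR adjusted p = 0.0771). The difference between the changes of Heph and Cp was not tested. Neither passed with any one of control replicates 1 and 2 and deficient replicates 2 and 3 left out, or scaled to macrophage markers. Heph also did not pass scaled to crest markers, nor Cp on library totals. Of 4 iron chaperones and storage genes tested, none passed, beside 11.9% of all tested genes, and Pcbp1, which loads iron into ferritin, had 210 ± 10.6 and 223 ± 3.29 CPM (SD, n = 3 each).

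Of the heme genes, 0 of 12 in uptake, transport and breakdown and 0 of 11 in synthesis had an adjusted p of at most 0.1 by edgeR on TMM sizes, beside 11.9% of all tested genes. Their median log2 fold changes were 0.06 and −0.09. Lrp1, the receptor for hemopexin-bound heme, was the most abundant of the first (225 ± 9.40 and 215 ± 15.3 CPM, SD, n = 3 each) and Alas1, the first enzyme of heme synthesis outside red cells, of the second (197 ± 18.3 and 227 ± 6.96 CPM, SD, n = 3 each). Alas2, its erythroid form, was at 1.49 ± 0.52 and 1.02 ± 0.50 CPM (SD, n = 3 each). The 14 erythroid markers, Alas2 among them and embryonic globin Hbb-y the most abundant at 8.11 CPM, summed to 31.9, 76.7 and 23.3 CPM in control libraries, against 25.1, 18.1 and 22.6 CPM in deficient ones (exact permutation test, two-sided p = 0.2), with control replicate 2 the highest. Rhag was at 0 in 4 libraries and Klf1 in 1. Thus erythroid RNA was a small part of every library.

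In iron sensing and ferritin turnover, Herc2, a ubiquitin ligase, fell at the adjusted p alone, from 49.2, 52.4 and 43.0 CPM to 41.0, 36.8 and 31.2 CPM (log2 fold change −0.41, standard error 0.11, edgeR Benjamini-Hochberg adjusted p = 0.0775). It was 14.3% of the 7 tested genes, beside 7.75% lower of all tested genes at the adjusted p alone. Hif1a was the most abundant of the 7, at 414 ± 5.53 and 467 ± 23.0 CPM (SD, n = 3 each). None of 29 genes of mitochondrial iron and iron-sulfur cluster assembly passed, beside 11.9% of all tested genes, their median log2 fold change was 0.06 beside −0.02, and Hspa9, the chaperone of the assembly, was at 103 ± 3.05 and 107 ± 3.87 CPM (SD, n = 3 each). In the hepcidin axis Neo1 alone passed of 6 tested genes. This share of 16.7% stood beside 7.75% lower of all tested genes at the adjusted p alone and 4.88% called lower. Smad4 was the most abundant of the 6 (42.5 ± 2.02 and 43.1 ± 1.72 CPM, SD, n = 3 each).

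The oxidative stress regulator Nfe2l2 (NRF2), which activates the ferritin genes and Hmox1, rose at the adjusted p alone, from 178.0, 176.6 and 198.3 CPM to 211.5, 217.9 and 222.0 CPM (log2 fold change 0.24, standard error 0.062, edgeR Benjamini-Hochberg adjusted p = 0.0763). Srxn1, sulfiredoxin, a target of NRF2, rose from 66.9, 60.6 and 69.9 CPM to 77.6, 79.7 and 74.1 CPM (log2 fold change 0.22, standard error 0.070, edgeR adjusted p = 0.0917). Of the 13 genes of this programme, 12 had positive log2 fold changes, beside 47.7% of all tested genes, with a median of 0.17 beside −0.02. The 2 that passed were 15.4% of them, beside 4.18% higher of all tested genes. Prdx1 was the most abundant (3557 ± 240 and 4068 ± 206 CPM, SD, n = 3 each). The programme was not uniform. Nqo1, counted among the 12, was level (log2 fold change 6e-04, standard error 0.27). Gclc was lower in every deficient library than in any control (−0.25, standard error 0.12), as were 16.4% of all tested genes. The fold changes of Nfe2l2 and Srxn1 and the median are of the size of those of the macrophage markers, and the part of macrophages in them was not tested. The rises at the adjusted p alone, 3 in the wider list, numbered 0 with any one of control replicates 1 and 2 and deficient replicates 2 and 3 left out, and 16 without control replicate 3. They also numbered 0 on library totals and 0 scaled to macrophage markers, but 5 by limma-voom, 6 by DESeq2, 7 with the length trend removed, 12 without the filter, 12 with the replicate block and 78 scaled to crest markers. Scaled to crest markers, 9438 of 13961 tested genes were called higher, so the 78 go with the whole table. Without control replicate 3 the whole table had 26 called higher. Shares of all tested genes at the adjusted p alone were not taken for these settings.

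**Figure D5:**
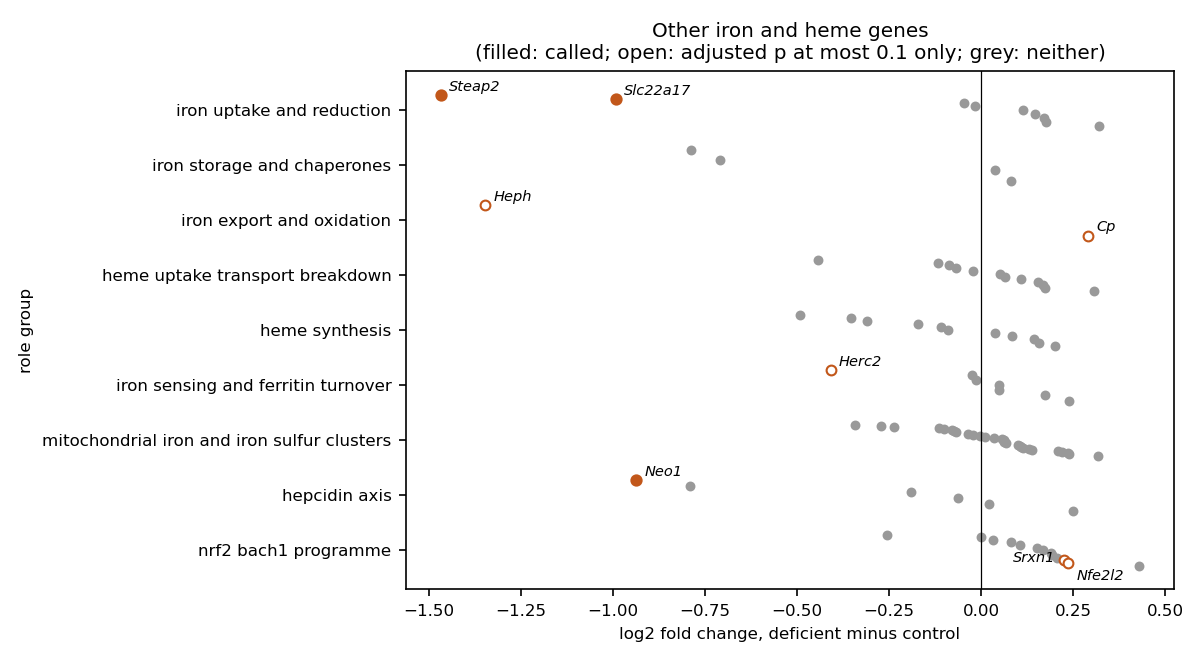
Log2 fold change (horizontal axis, deficient minus control) of 93 tested iron and heme genes, one point per gene, by role group. Filled points are the 3 called genes, open points those with an adjusted p of at most 0.1 only, and most points lie within 0.5 of 0.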

How the data were processed

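Adapter-trimmed read pairs had been aligned to GRCm38 with STAR and assigned to genes with featureCounts by the authors. The authors deposited raw counts per gene. The annotation release, strand setting and handling of multi-mapping reads are not given in the sources used here. Identifiers were matched without their version to GENCODE M21 (46488 of 46983 named), whose exon lengths and coordinates may differ from the authors' annotation. Genes without a name held at most 0.0706% of counts.

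The main test used edgeR 4.0.16 (R 4.3.3): filterByExpr (minimum count 10, total 15), TMM and a robust quasi-likelihood fit on condition, over 13961 genes, with Benjamini-Hochberg adjustment. The common biological coefficient of variation was 12.8%. Alternatives used DESeq2 1.42.0, limma-voom (limma 3.58.1), library totals, no filter, a replicate block, a lowess length correction (span 0.3), scaling to markers, and each library left out. The fit was tested on simulated data.

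The 10 genes and all lists were chosen with earlier results of these data known. All 10 are named. Of the wider list the genes called, those with an adjusted p of at most 0.1 and the most abundant of each role are named, and of each marker list the most abundant. Named outside this rule are Alas2 (for its hairpin and as an erythroid marker), Rhag and Klf1 (for libraries at 0), Fcer1g (as a neighbour of Fth1), Nqo1 and Gclc (as level and lower genes of the NRF2 programme), and Hamp and Cd163 (under other observations). Neutrophil markers (S100a8 the most abundant, 11.0 CPM) summed to 20.1 and 25.9 CPM, endothelial markers (Kdr, 184 CPM) to 183 and 205 CPM, and dorsal neural tube markers (Zic1, 9.54 CPM) to 31.3 and 21.3 CPM, in control and deficient means.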

Additional observations from a re-analysis of the deposited data

How the results depend on the processing

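Counts of calls moved with the processing and the cause was not tested. The 681 genes called lower became 1143 with the replicate block, 25 scaled to crest markers and 438 scaled to macrophage markers, and ranged from 0 (without control replicate 1) to 1219 (without control replicate 3) with libraries left out. The 8 called higher became 15 by DESeq2, 33 without a filter, 21 with the block, 9438 scaled to crest markers and 0 scaled to macrophage markers, and ranged from 0 to 45. Without control replicate 1, where no gene was called by edgeR, 2547 had an unadjusted p under 0.05. In the wider iron list, the 3 called lower became 0 scaled to crest markers and 1 scaled to macrophage markers, and ranged from 0 to 4, and the 0 called higher became 78 scaled to crest markers. Its median log2 fold change of 0.05 became 0.11 on library totals, 1.09 scaled to crest markers and −0.14 scaled to macrophage markers. Scaled to crest markers, Slc22a17 became 0.10 and Neo1 0.13. The ferritin log2 ratio of group means, 0.19, became 1.21 scaled to crest markers and 0.0084 scaled to macrophage markers and ran from 0.14 to 0.25 with libraries left out. Over the same fits the log2 difference of the light to heavy ratio ran from −0.02 to 0.08 and the macrophage log2 ratio from 0.14 to 0.24. Whether shared replicate numbers pair the samples cannot be told from these data. Deviations of same-numbered libraries correlated across genes at 0.03, −0.03 and 0.29, the last being the highest of all pairs. Control replicate 2 was closest to deficient replicate 1 (0.26). The replicate numbers, also used for the replicate block, are those of the sample titles. The count columns number the deficient libraries 2, 3 and 4 instead. By column number, control replicate 2 shares its number with deficient replicate 1 (0.26) and control replicate 3 with deficient replicate 2 (4e-04). The lowest counts behind a gene of the 10 were 69 for Ncoa4 and 77 for Slc40a1, whose fold changes under 0.2 were within their standard errors.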

Other observations

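Some iron genes known from other tissues were present at levels given here as values only, and were picked after their values were seen. Hamp, the gene of the liver hormone hepcidin, was at 2.42 ± 0.61 and 2.90 ± 0.62 CPM (SD, n = 3 each) in control and deficient libraries, with a log2 fold change of 0.25 (standard error 0.30, edgeR Benjamini-Hochberg adjusted p = 0.624). Cd163, the hemoglobin scavenger receptor of many macrophages, did not pass the filter on low counts, at 0.38 ± 0.22 and 0.50 ± 0.39 CPM (SD, n = 3 each), in the same libraries in which the macrophage gene Ctss averaged 3833 CPM.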
